A study of Mus musculus with 6 samples.

Results

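The 10 genes of polyamine synthesis, breakdown and feedback control described here are Amd1, Amd2, Odc1, Srm, Sms, Sat1, Smox, Azin1, Oaz1 and Oaz2. They are 10 of the 22651 genes in the tables, were found by gene symbol, and each had a row in every mouse. They were chosen with their TPM (a gene's share of all transcripts, per length) and expected counts in this comparison already known, so their differences between the groups are given as a description. Counts of them past a threshold stand beside the share of all genes, and nothing is read from those counts.

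The mRNA-sequencing compared telencephalon, the part of the forebrain that holds cortex and striatum, of 3 WT and 3 TSC1-KO pups at postnatal day 0. Both groups were homozygous for a floxed Tsc1 allele (TSC1 flox/flox). The WT mice had 2 unmodified Emx1 alleles (Emx1 +/+), and the TSC1-KO mice carried 1 Emx1-cre allele (Emx1-cre/+). Cre from the Emx1 locus acts in the dorsal telencephalon during embryonic life, so the tissue of TSC1-KO mice also held cells in which Tsc1 was not deleted. The strain background was not given in the sources used here. The question was which transcripts differ when TSC1, a brake on the kinase mTOR, is lost from these cells.

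Polyamines are small positively charged molecules that bind nucleic acids and that dividing cells need in quantity. Ornithine decarboxylase (Odc1) makes putrescine, and S-adenosylmethionine decarboxylase (Amd1, Amd2) makes the donor of aminopropyl groups. Spermidine synthase (Srm) adds such a group to putrescine, and spermine synthase (Sms) adds another to spermidine. Sat1 and Smox acetylate and oxidise the products, antizymes (Oaz1, Oaz2) bind ornithine decarboxylase and send it to the proteasome, and the antizyme inhibitor (Azin1) binds antizymes in its place. Much of this control acts on translation and on the proteins, which mRNA levels do not show.

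Total expected counts (the reads that RSEM, the quantification program, assigned to genes) lay between 14119365 and 17772865 per mouse, and 3 counts corresponded to 0.169 to 0.212 CPM (a gene's count scaled to a common library total). TPM of Tsc1, which counts all exons and all cells, was 50.2, 32.0 and 28.4 in WT and 27.1, 21.7 and 22.4 in TSC1-KO (log2 fold change −0.66 ± 0.175 SE, adjusted p = 0.1 by edgeR). Without WT replicate 1 the log2 fold change of Tsc1 was −0.40. It was lower in every TSC1-KO mouse, and the threshold was not passed. Xist and Y-linked counts marked replicate 3 of each group as male and the other pups as female, which bears on the X-linked Sat1 and Sms. All 10 subpallial and striatal neuron markers were lower in TSC1-KO, against 7079 of the 13969 genes tested. Of the 10, 3 passed the threshold, against 1.52% of all genes tested. Their summed CPM was 519 to 632 in WT against 240 to 378 in TSC1-KO. The 5 choroid plexus markers summed to 515 to 1096 CPM in WT against 15.1 to 369 in TSC1-KO, and the 6 markers of cycling progenitors to 274 to 317 against 236 to 256. No gene of either list passed the threshold. The summed CPM of pallial neuron markers was 1548 to 1726 in WT and 1614 to 1967 in TSC1-KO, and red blood cell genes reached 1913 CPM in WT replicate 3 against 456 to 706 in the other mice. In bulk tissue, fewer cells of a type and less RNA per cell cannot be told apart.

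Amd1 and Amd2 are nearly the same sequence at different places on chromosome 10. Amd1 spans chr10:40287458-40302186 on the minus strand of GRCm38 (the assembly of mm10) in 8 exons, and Amd2 lies at chr10:35708675-35711892 on the same strand as 1 exon, with no other annotated gene overlapping either. Both are annotated as protein coding. The annotated Amd1 transcript has 3204 bases and that of Amd2 has 3218, ending in a run of 17 A. Of 3204 aligned base pairs, 99.56% were identical. Away from the ends there were 10 substitutions, 8 in the 3′ UTR, 1 in the 5′ UTR and 1 in the coding sequence, besides 4 bases of the 5′ UTR that Amd2 alone has. The coding sequences of 1005 bases each therefore differ at a single base, G1124C, with the Amd1 base first and positions counted from the first base of the Amd1 transcript.

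The 61 bases around that difference are shown because they hold the only coding position by which a read can be assigned to one gene or the other. They lie in exon 7 of Amd1 (chr10:40290156-40290216) and in the single exon of Amd2 (chr10:35710734-35710794), both on the minus strand. The capital marks the base that differs.
Amd1: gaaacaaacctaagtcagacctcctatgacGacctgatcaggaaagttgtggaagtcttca
Amd2: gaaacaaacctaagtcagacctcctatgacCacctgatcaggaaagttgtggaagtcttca

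A single read can often not be assigned. Of all windows of the Amd2 transcript as long as an untrimmed read, 72.6% occur without a change in Amd1, as do 85.7% of its 50-base windows. Reads were paired, and the share for pairs, which cover more bases, was not computed. The length that reads had after trimming is not known here. The deposited effective lengths are only 45.8 to 49.7 bases below the transcript lengths in WT and 55.1 to 57.6 in TSC1-KO. Whether this difference bears on the division of reads was not tested. RSEM divides reads that fit both genes between them by an estimate, and the deposited counts of Amd1 and Amd2 were not whole numbers in any mouse. The other 8 genes described here had whole counts in all 6 mice. The RefSeq transcripts in the deposited tables were 3206 bases long for Amd1 and 3197 for Amd2, so their ends differ slightly from the annotation used for the sequences here.

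**Figure D1:**
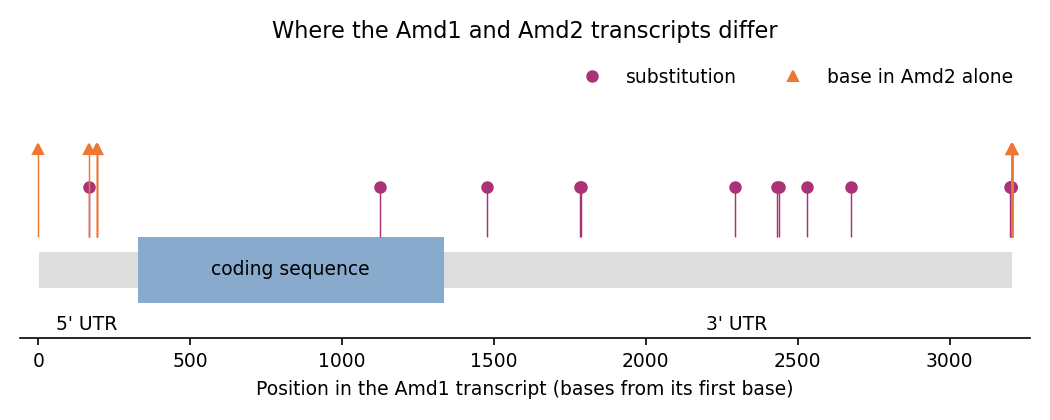
Differences between the annotated transcripts of Amd1 and Amd2 along the Amd1 transcript (x axis, bases from its first base). Circles mark substitutions and triangles bases that Amd2 alone has; the vertical position only separates the 2 kinds. The blue box is the coding sequence, which holds 1 of the 10 inner substitutions, and the other marks lie in the UTRs or at the transcript ends.

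The sequences upstream of the 2 genes differed in base composition. The 250 bases before each RefSeq start (GRCm38.p6) are shown because the near identity of the transcripts can be set beside them. Capitals mark 3 motifs, which were searched on both strands and chosen after the sequences had been seen. These were the TATA box letters TATAA, the GC box letters GGGCGG and the letters CCAAT of the box of that name, which reads ATTGG on the other strand. The letters CACGTG were searched as well, had no match in either window and occurred in 6.0% of all promoter windows. In Amd1 the pair of TATAA matches overlap, 1 on each strand. The windows are chr10:40302189-40302438 for Amd1 and chr10:35711892-35712141 for Amd2, both minus strand.
Amd1: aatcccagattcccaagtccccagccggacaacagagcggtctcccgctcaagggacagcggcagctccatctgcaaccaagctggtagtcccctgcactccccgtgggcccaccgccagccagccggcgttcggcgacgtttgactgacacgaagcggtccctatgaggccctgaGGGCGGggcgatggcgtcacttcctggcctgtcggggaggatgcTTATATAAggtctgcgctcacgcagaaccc
Amd2: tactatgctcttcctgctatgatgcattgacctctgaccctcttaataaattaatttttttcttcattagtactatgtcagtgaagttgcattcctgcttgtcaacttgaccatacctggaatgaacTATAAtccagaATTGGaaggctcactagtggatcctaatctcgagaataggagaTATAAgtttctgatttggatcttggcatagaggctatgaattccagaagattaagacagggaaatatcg

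The Amd1 window was 64.4% G or C with 19 CpG, and the Amd2 window 37.6% with 2 CpG, against medians of 52.4% and 6 over the 32851 windows of all RefSeq promoters. TATAA was present in both, GGGCGG in Amd1 alone and CCAAT in Amd2 alone. These letters occurred in 22.8%, 32.7% and 33.8% of all windows. Of the 10 genes, 8 had such a window (Srm and Azin1 had none in the table), and among these TATAA occurred in 2 genes, GGGCGG in 6 and CCAAT in 3. A match is a description of letters and not a binding site.

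Values below are given in the order of replicates 1, 2 and 3. TPM of Amd1 was 57.7, 40.9 and 0 in the WT mice and 64.3, 69.5 and 50.4 in the TSC1-KO mice. WT replicate 3 stood apart, with an expected count of 0.01 for Amd1 where the other 5 mice had 852 to 1124. No other gene in the tables had at most 3 counts in 1 mouse and at least 500 in each of the other 5, a search that was made after this value had been seen. The log2 fold change of Amd1 was 0.88 ± 0.84 (SE, n = 3 per group). Leaving out 1 mouse moved it between 0.31 (without WT replicate 3) and 1.51 (without WT replicate 1), and over all alternatives it reached 3.30, with limma on log2(TPM + 0.1).

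TPM of Amd2 was 13.5, 8.68 and 48.6 in WT and 0.25, 0.02 and 1.11 in TSC1-KO. Every TSC1-KO mouse was below every WT mouse, and the highest value was that of the WT mouse with no Amd1. The expected counts behind them were 246, 180 and 814 in WT and 4.29, 0.39 and 20.3 in TSC1-KO, so that TSC1-KO replicate 2 lay under the 3 counts read as detection. The log2 fold change was −5.68 ± 0.924 (SE, approximate 95% interval −7.76 to −3.60). Without WT replicate 3 it was −4.56, and without TSC1-KO replicate 3 it was −7.57.

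Amd2 was the only one of the 10 genes past the threshold of an adjusted p below 0.05 in edgeR's quasi-likelihood test, against 1.52% of the 13969 genes tested. Because the genes were chosen on this contrast, nothing is read from that count. The call was lost without TSC1-KO replicate 1 and without TSC1-KO replicate 2, when Amd2's log2 fold change was −5.36 and −5.15.

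As a share of the reads of both genes, Amd2 held 18.9% in WT replicate 1 (95% Wilson interval 16.9% to 21.1%), 17.5% in WT replicate 2 (15.2% to 19.9%) and all but 0.01 reads in WT replicate 3 (99.5% to 100%). In TSC1-KO it held 0.391% (0.142% to 0.935%), 0.0347% (0% to 0.341%) and 2.14% (1.37% to 3.23%). The shares of WT replicates 1 and 2 lay within each other's intervals, and all WT shares were above all TSC1-KO shares. These intervals cover counting error only and take the division of shared reads as given. The mean share was 45.5% ± 47.2 in WT and 0.855% ± 1.13 in TSC1-KO (SD, n = 3 each). The difference of −44.6 percentage points became −17.3 without WT replicate 3. With 3 mice against 3, an exact permutation test can give no p under 0.1.

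Counted together, Amd1 and Amd2 overlapped between the groups. The sum of the Amd1 and Amd2 counts does not depend on how shared reads were divided. It was 1302, 1032 and 814 in WT and 1096, 1124 and 950 in TSC1-KO. WT replicate 3, with all of its reads on Amd2, had the lowest sum, and WT replicate 1 the highest. On the TPM scale the sum was 71.1, 49.6 and 48.6 in WT (56.4 ± 12.7, SD) and 64.5, 69.6 and 51.5 in TSC1-KO (61.9 ± 9.34). Fitted as 1 gene, its log2 fold change was 0.11 ± 0.147 (SE). The 95% interval, −0.22 to 0.44, includes 0 as well as a moderate difference in either direction, and leaving out 1 mouse at a time gave 0.01 to 0.28. Whether the lower Amd2 share in TSC1-KO lies in the transcripts or in the division of reads was not tested.

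**Figure D2:**
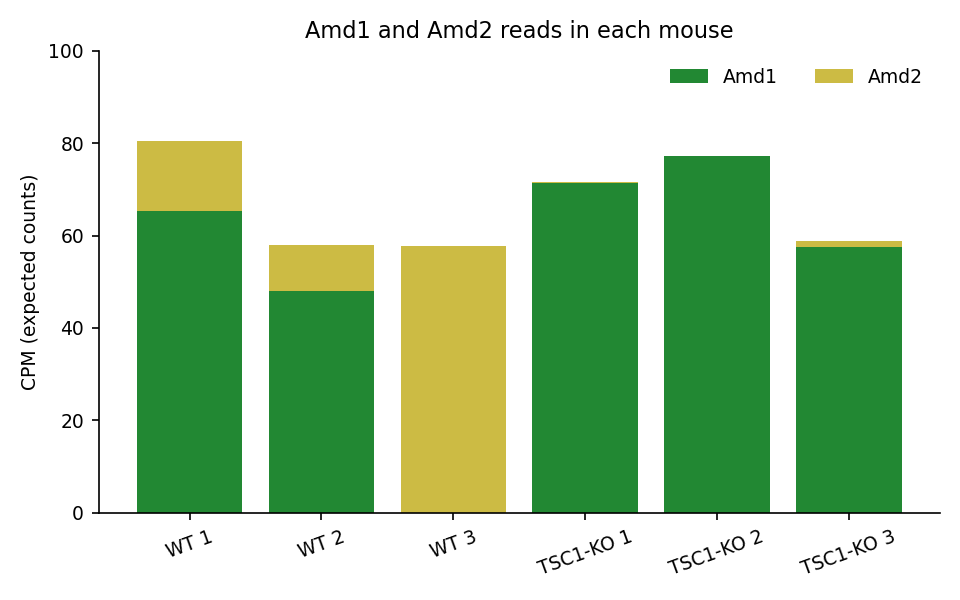
Reads of Amd1 (green) and Amd2 (yellow) in each of the 6 mice, stacked, in CPM of expected counts (y axis). Total bar height ranges from 57.7 to 80.6 and overlaps between the groups, the WT 3 bar is Amd2 throughout, and Amd2 reaches at most 1.26 in TSC1-KO.

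The genes around the 2 loci were also measured. Gtf3c6 and Cdk19, the nearest tested genes on either side of Amd1 (29.4 and 37.4 kb away), had log2 fold changes of −0.15 ± 0.0951 and −0.02 ± 0.0651 (SE). Amd2 lies far from other tested genes, with Frk, a tyrosine kinase gene, at 1097.4 kb (−0.61 ± 0.275) and Hs3st5, a heparan sulfate sulfotransferase gene, at 794.9 kb (−0.21 ± 0.136). None of the 4 passed the threshold (edgeR adjusted p from 0.286 to 0.927). The 13 tested genes in the 4.58 Mb between Amd2 and Amd1 had log2 fold changes of −0.40 to 0.14.

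The genes whose log2 CPM tracked Amd2 most closely over the 6 mice were Cbln2, Casd1, Cacna2d2, Meis2 and Gad2, with Pearson r from 0.990 to 0.993. The mice fall into 2 groups, so r largely follows the group difference and is given without a p. Gad2, which makes the transmitter GABA, had a TPM of 48.9, 49.9 and 59.3 in WT and 24.6, 20.1 and 33.9 in TSC1-KO. Like Amd2 it was highest in WT replicate 3 and, within TSC1-KO, in replicate 3. The summed subpallial and striatal markers, of which Gad2 is one, were also highest in replicate 3 of each group, as were the choroid plexus and red blood cell markers. Replicate 3 was also the only male pup of each group. The part of these cell types and of sex in the Amd2 values was not tested.

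Odc1 (chr12:17544794-17551505, plus strand of GRCm38), the enzyme of the first step, was lower in TSC1-KO on average, with overlap. Its TPM was 179, 252 and 250 in WT (227 ± 41.7, SD) and 132, 165 and 204 in TSC1-KO (167 ± 36.3). WT replicate 1 lay below TSC1-KO replicate 3. The log2 fold change was −0.47 ± 0.186 (SE), and the ratio of TPM on the log2 scale was −0.54 in female and −0.29 in male pups.

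Of the antizymes, Oaz1 (chr10:80826656-80829290, plus strand) was lower in every TSC1-KO mouse. TPM of Oaz1 was 226, 233 and 206 in WT and 174, 199 and 198 in TSC1-KO, so the groups stood apart, by 206 against 199 at their nearest. The log2 fold change was −0.26 ± 0.0868 (SE). The log2 ratio was −0.30 in females and −0.06 in the single male pair. Oaz2 (chr9:65668001-65690300, plus strand) overlapped, at 259, 257 and 267 TPM in WT and 237, 255 and 278 in TSC1-KO (−0.05 ± 0.081). Azin1 (chr15:38487427-38519266, minus strand), which counters both, was the steadiest of the 10, with 261 to 273 TPM in WT and 261 to 280 in TSC1-KO (−0.01 ± 0.0599), and a coefficient of variation of 2.70% over the 6 mice.

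For both synthases the 95% interval of the log2 fold change included 0, from −0.32 to 0.06 for Srm and from −0.27 to 0.12 for Sms. Srm (chr4:148591503-148594993, plus strand) had 125, 122 and 115 TPM in WT and 104, 120 and 114 in TSC1-KO, which overlapped (log2 fold change −0.13 ± 0.0843, SE). In CPM, which are not divided by effective length, its groups stood apart, with 55.3 to 58.1 in WT and 46.6 to 53.6 in TSC1-KO. Sms (chrX:157443855-157492287, minus strand) had 125, 142 and 145 TPM in WT and 129, 133 and 136 in TSC1-KO (−0.08 ± 0.0846). TPM of both synthases varied by 6.36% and 5.51% over the 6 mice (coefficient of variation).

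Sat1 (chrX:155213132-155216449, minus strand), which starts the return from spermine and spermidine by acetylating them, was higher in every TSC1-KO mouse. TPM of Sat1 was 49.2, 49.0 and 52.8 in WT (50.3 ± 2.12, SD) and 79.3, 65.5 and 77.4 in TSC1-KO (74.1 ± 7.51). The WT mice were close together, and the nearest TSC1-KO mouse, replicate 2, stood clear of them. The log2 fold change was 0.52 ± 0.107 (SE, 95% interval 0.28 to 0.76). With DESeq2, 2 of the 10 genes passed (Amd2 and Sat1), against 4.64% of all genes, and in an edgeR fit blocked on replicate number 3 did (Odc1 as well), against 3.94%. Nothing is read from these counts. Sat1 is X-linked, and the log2 ratio was 0.56 in female pups and 0.55 in the male pair. Smox (chr2:131491496-131525922, plus strand), the spermine oxidase, had 36.5, 40.4 and 35.6 TPM in WT and 38.2, 40.2 and 44.8 in TSC1-KO (0.11 ± 0.102), with overlap.

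**Figure D3:**
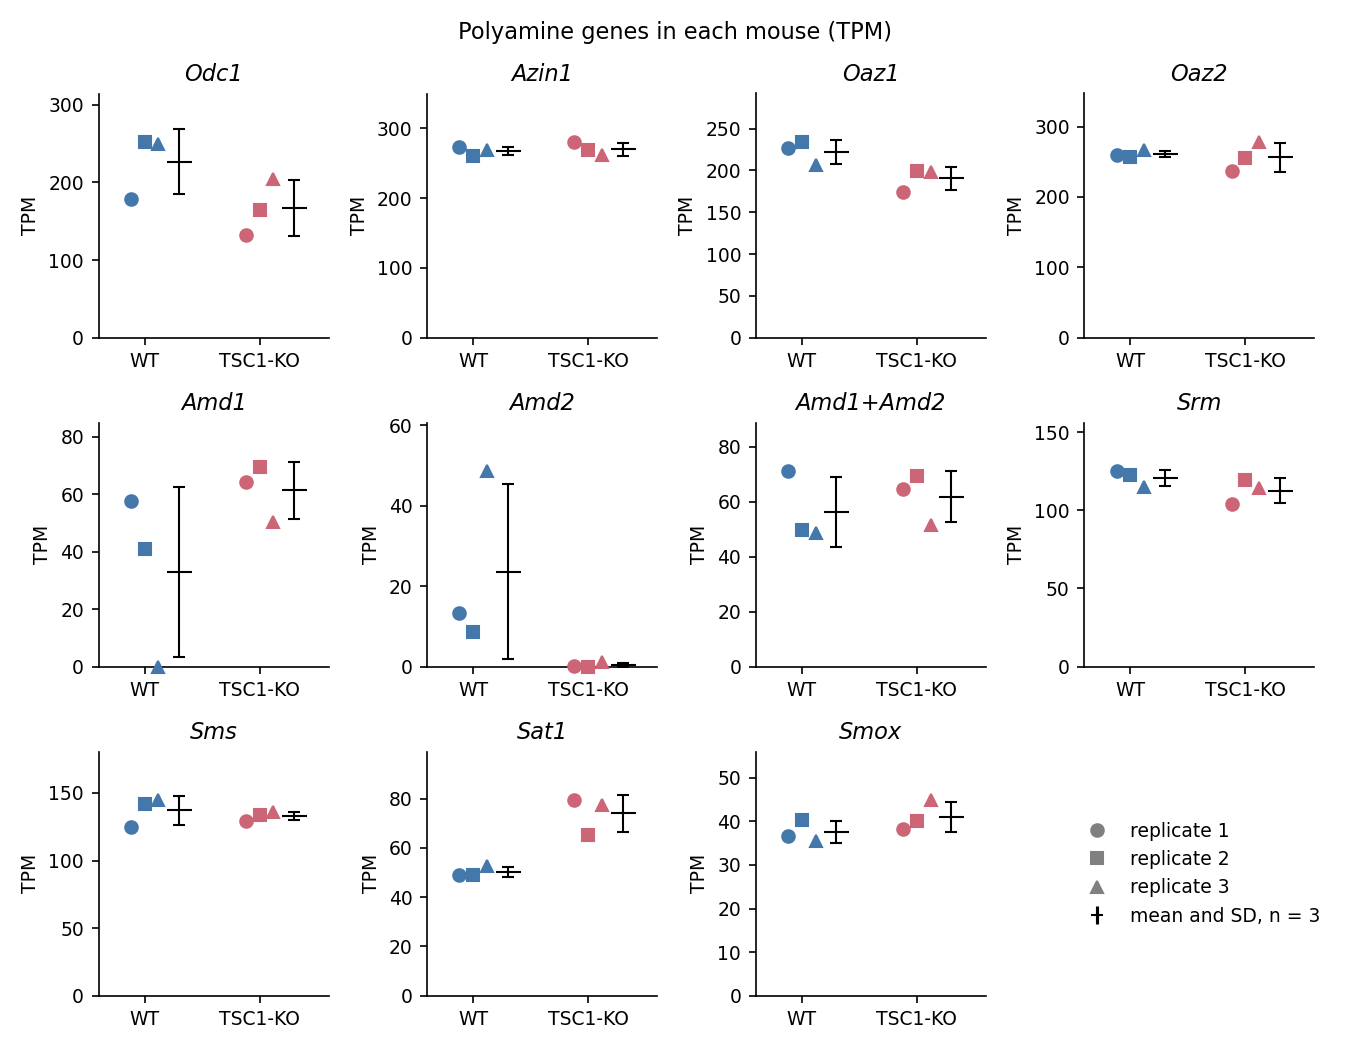
TPM (y axis, from 0, a scale per panel) of each gene and of Amd1 and Amd2 together in the 3 WT (blue) and 3 TSC1-KO (red) mice. Symbols are replicates, and bars are the mean and SD. The groups stand apart for Amd2, Oaz1 and Sat1, and the WT triangle on the Amd1 axis at 0 is replicate 3.

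Over the 10 genes, 3 had a log2 fold change above 0 and 7 below (Azin1 and Oaz2 change side under some alternatives), with a median of −0.07 against −0.0027 over all genes tested. TPM of the groups did not overlap for 3 of them, 1 higher and 2 lower in TSC1-KO, against 22.7% of all genes tested. An unadjusted p below 0.05 in edgeR was reached by 1 gene higher in TSC1-KO (Sat1), against 9.04% of all genes, and by 3 lower (Amd2, Oaz1 and Odc1), against 8.93%. Nothing is read from these counts either. On the TPM scale, which compares genes per length, the mean over the 6 mice ran from Azin1 (269 ± 7.27, SD) and Oaz2 (259 ± 13.5) through Oaz1 (206 ± 21.5), Odc1 (197 ± 47.9), Sms (135 ± 7.44) and Srm (117 ± 7.42). Below these came Sat1 (62.2 ± 13.9), Amd1 with Amd2 (59.1 ± 10.4) and Smox (39.3 ± 3.33). In that order, Azin1 and Oaz2, Oaz1 and Odc1, and Sat1 and the Amd1 and Amd2 sum overlapped in mean ± SD, and the other neighbours did not. The last 2 of these pairs changed places between the groups in their means, though not in every mouse. In WT, mean Odc1 (227) lay above Oaz1 (222) and the Amd1 and Amd2 sum (56.4) above Sat1 (50.3). In TSC1-KO, mean Oaz1 (190.3) lay above Odc1 (167) and Sat1 (74.1) above the sum (61.9). Against these orders, Odc1 lay below Oaz1 in WT replicate 1 and above it in TSC1-KO replicate 3. Likewise Sat1 lay above the sum in WT replicate 3 and below it in TSC1-KO replicate 2.

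Of the other genes of the pathway, 1 of 33 tested passed the threshold, against 1.52% of all genes tested. Of 41 genes listed, 40 had a row and 7 were too low to test; Slc3a2 was not analysed here. Among the 33, 13 were higher and 20 lower in TSC1-KO, and 8, Mycn included, had an unadjusted p below 0.05, as did 2510 of the 13969 genes tested. The median log2 fold change was −0.06.

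Mycn, a Myc family transcription factor of neural progenitors, fell. Its TPM was 85.3, 92.2 and 85.4 in WT and 65.8, 72.2 and 65.6 in TSC1-KO, with the groups apart. Its log2 fold change was −0.40 ± 0.0799 (SE; edgeR adjusted p = 0.0479). The call was lost under RLE normalization, with effective length offsets, in female pups only, and on leaving out WT replicate 2, WT replicate 3, TSC1-KO replicate 1 or TSC1-KO replicate 2. The summed CPM of the cycling progenitor markers was lower in TSC1-KO as well (274 to 317 against 236 to 256), with none of the 6 past the threshold. The part of these cells in the Mycn value was not tested. Myc, the best known activator of Odc1, had a log2 fold change of −0.06 ± 0.101, Mycl −0.16 ± 0.081 and Max 0.09 ± 0.096.

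In the remaining lists no gene passed the threshold in edgeR. With DESeq2 3 did (Pmf1, Psme4 and Slc7a1), against 4.64% of all genes. The gene with the largest difference in each list is given. In S-adenosylmethionine supply this was Ahcy, which clears S-adenosylhomocysteine (−0.33 ± 0.0932, edgeR adjusted p = 0.108). In ornithine and arginine supply it was Arg2, an arginase (0.20 ± 0.138, edgeR adjusted p = 0.488). In methionine salvage it was Adi1 (−0.22 ± 0.118, edgeR adjusted p = 0.374), and among the other acetylation and oxidation enzymes Paox, which oxidises acetylated polyamines (−0.20 ± 0.183, edgeR adjusted p = 0.6). Eif5a2, a translation factor that carries the spermidine-derived residue hypusine, stood at 0.26 ± 0.0974 (edgeR adjusted p = 0.201). Of the transporters, Slc22a2 had the largest value with a wide error (−0.76 ± 0.391, edgeR adjusted p = 0.345). TPM of the groups stood apart for Ahcy and Adi1 (lower in TSC1-KO) and for Arg2 and Eif5a2 (higher), and overlapped for Paox and Slc22a2. Of all genes tested, 22.7% had groups apart.

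Pmf1, a kinetochore gene also described as a polyamine-modulated cofactor of Sat1 transcription, came closest to the threshold after Mycn. TPM of Pmf1 was 16.8, 19.9 and 18.2 in WT and 10.5, 10.4 and 11.9 in TSC1-KO, with the groups apart (log2 fold change −0.78 ± 0.164, SE; edgeR adjusted p = 0.0554). Sat1 was higher and Pmf1 lower in each TSC1-KO mouse than in any WT mouse, where 22.7% of all genes tested had groups apart. A link between Sat1 and Pmf1 was not tested.

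**Figure D4:**
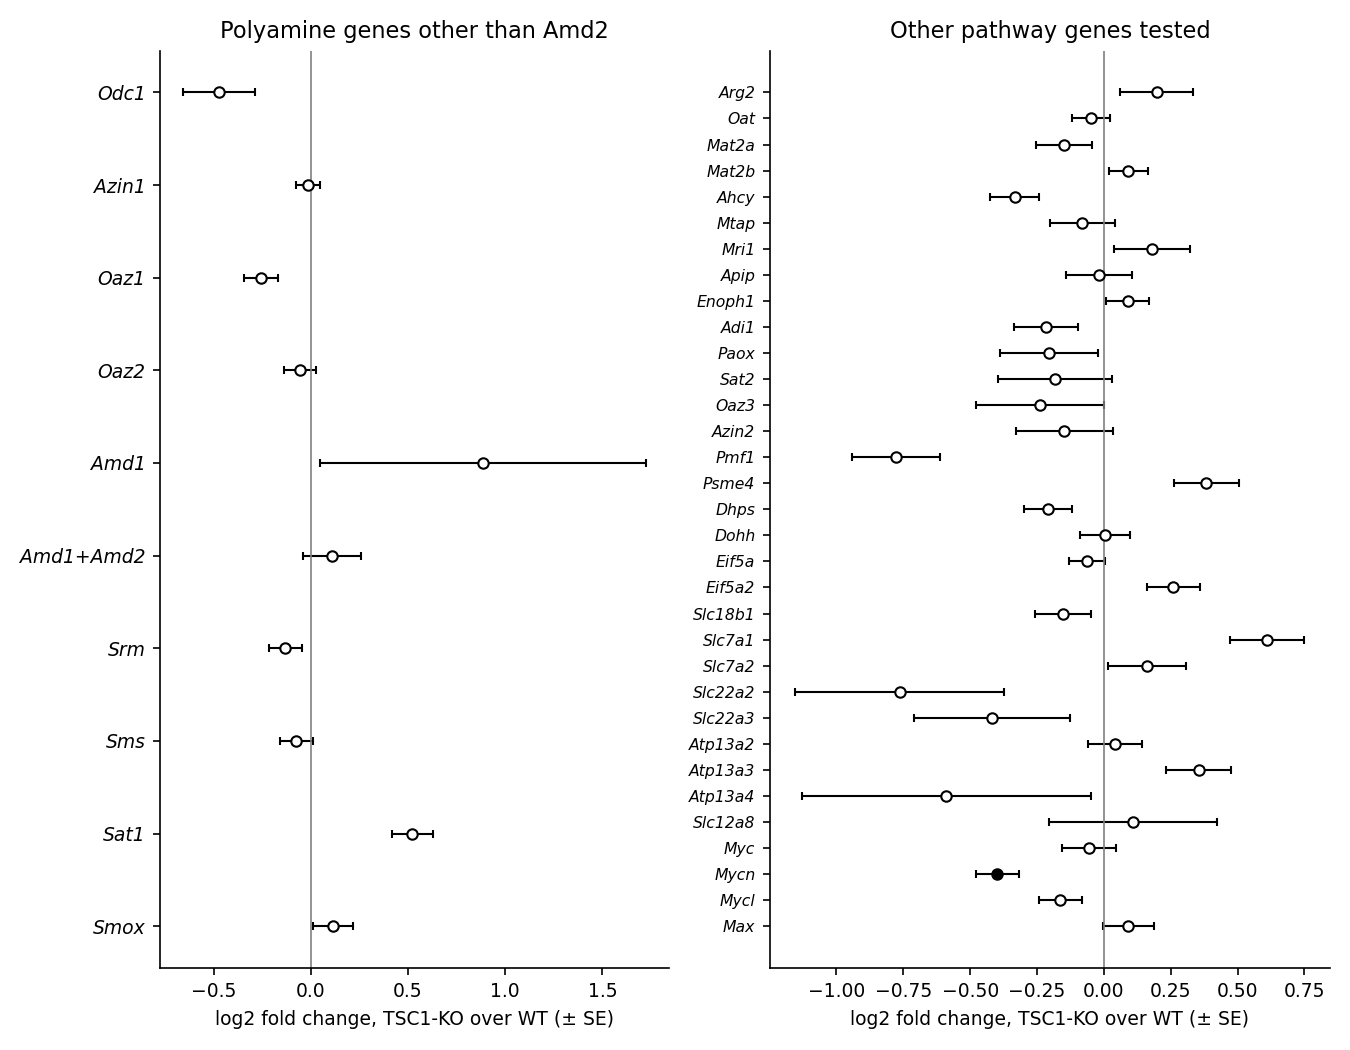
Log2 fold change of TSC1-KO over WT with its SE (x axes) for the polyamine genes other than Amd2, whose value of −5.68 lies off the scale, and for the 33 other pathway genes tested. Filled points have an edgeR adjusted p below 0.05. Mycn alone is filled. The bars are SEs of the fit to all 6 mice, long for Amd1 and short for the Amd1 and Amd2 sum.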

How the data were processed

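RNA from the telencephalon of 3 WT and 3 TSC1-KO mice was sequenced by the authors as paired reads (Illumina TruSeq RNA v2), checked with FastQC, trimmed, aligned to mm10 with MapSplice2 and quantified with RSEM 1.2.12 on RefSeq transcripts. The deposited expected counts are RSEM estimates of reads per gene, not normalized, with reads that fit several genes divided among them. The deposited TPM are scaled by effective length and to a common total, and the deposited FPKM were not used. The deposited lengths and effective lengths, in other units (bases), differ by 45.8 to 57.6 bases, more in TSC1-KO. The groups came from the genotype labels, with 1 table per mouse and no pooling. WT mice were Cre-negative littermates of TSC1-KO mice by the study's methods, but which mice share a litter is not given, and p-values measure the spread between these mice.

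Expected counts were rounded and tested with edgeR 4.0.16 in R 4.3.3 (TMM, filterByExpr, quasi-likelihood, Benjamini-Hochberg over 13969 genes, threshold 0.05). Amd1 and Amd2 were also replaced by their sum and refitted. Positions and transcripts are from GENCODE on GRCm38, promoters from RefSeq on GRCm38.p6, and alignments were made with Biopython 1.88. Alternatives were RLE and upper quartile normalization, DESeq2 1.42.0, limma 3.58.1 on log2(TPM + 1) and log2(TPM + 0.1), other filters, effective length offsets, a replicate block and each mouse left out. A fit of female pups only was added after seeing the data. Scripts were tested on simulated data. No library was a copy of another of its group (chi-square per degree of freedom 5.68 to 17.4).

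The genes, gene lists and tests were chosen with earlier results of these data known. Named genes are the 10 polyamine genes, Tsc1, called pathway genes and otherwise the one with the largest difference per list, the 5 genes most like Amd2, and the nearest tested neighbours of Amd1 and Amd2. Myc, Mycl, Max and the genes called under alternatives are given besides, chosen after their values were seen.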

Additional observations from a re-analysis of the deposited data

How the results depend on the processing

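Of the 10 polyamine genes, 2 were past the threshold (Amd2 and Sat1 each time) with DESeq2, with limma on log2(TPM + 1) (267 of all 13844 genes), without a filter (346 of 18026) and with effective length offsets (203 of 13969). None was with at least 10 counts in every mouse (218 of 13376), which removes Amd1 and Amd2 so that they have no value there. When 1 mouse was left out, 0 to 1 were, against 29 to 799 of all genes. Nothing is read from these counts. The log2 fold change of Sat1 lay between 0.48 and 0.60 in the alternatives. Of the other pathway genes, 0 were called with RLE normalization (215 of all 13969 genes) and with effective length offsets (203 of 13969). With DESeq2 4 were (Pmf1, Psme4, Slc7a1 and Mycn), against 4.64% of all genes. With limma on log2(TPM + 1) 2 were (267 of 13844), and without a filter 3 (346 of 18026). On leaving out 1 mouse 0 to 5 were, against 29 to 799 of all genes. Nothing is read from these pathway counts either. Of all genes, 212 were called, 636 with DESeq2, 434 in female pups only and 29 to 799 on leaving out 1 mouse, with each of the 6 moving the count by over 1.5 times. Tsc1 passed the threshold with DESeq2 (log2 fold change −0.65) and in females only (−0.76). The direction of Azin1 turned with limma on log2(TPM + 1) (0.013) and on log2(TPM + 0.1) (0.013), without WT replicate 3 (0.0093) and in females only (0.021), and that of Oaz2 without TSC1-KO replicate 1 (0.014). On leaving out 1 mouse, Azin1 ran from −0.029 to 0.0093 and Oaz2 from −0.13 to 0.014. These values are small against their errors, and the cause was not tested. The sum of Amd1 and Amd2 stayed above 0 and outside the threshold in all alternatives run.

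The deviations of same-numbered mice correlated at 0.267, −0.133 and 0.318 for replicates 1, 2 and 3. They were positive for 2 numbers and not for replicate 2, and pairs were taken only where every number exceeded 0.1, so the numbers are not used as pairs. With the replicate number as a block, 3 of the 10 genes were called (Amd2, Odc1 and Sat1), 3 other pathway genes (Pmf1, Slc7a1 and Mycn) and 551 genes in all, Tsc1 was called at a log2 fold change of −0.63, and the Amd1 and Amd2 sum was 0.12.

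With 3 mice per group, log2 fold changes carry SEs of 0.0599 to 0.924 over the 10 genes. Below 3 counts, Amd2 was not detectable in TSC1-KO replicate 2. Amd1 and Amd2 can be told apart only by reads over their few differing bases, so their separate values rest on fewer reads than their counts show.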

Other observations

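Slc7a1, a cationic amino acid transporter that carries arginine and ornithine, had a TPM of 65.1, 55.4 and 46.6 in WT and 103, 87.5 and 68.9 in TSC1-KO, with the groups apart (log2 fold change 0.61 ± 0.138, SE; edgeR adjusted p = 0.0657, from a gene named after its values were seen). Psme4, a proteasome activator, and Atp13a3, a polyamine transporter, had log2 fold changes of 0.38 ± 0.122 and 0.35 ± 0.123 (edgeR adjusted p = 0.145 and 0.177). For both, TPM of WT replicate 1 lay among the TSC1-KO values and WT replicates 2 and 3 lay below them.

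In the tables, 645 genes (2.85%) had a count that was not whole in at least 1 mouse, as Amd1 and Amd2 did.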
